A study of Mus musculus with 6 samples.

Results

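The bins described here are 1334 stretches of 50 kb of the mouse genome, 66.7 Mb in all, in which both libraries made after depletion of Brg1 were placed in a more B-like subcompartment than all 4 other libraries. They were chosen by their ranks: a bin was taken where the highest rank of the 2 Brg1KD libraries lay below the lowest rank of the 2 control and 2 Ino80KD libraries. Of 47717 bins labelled in all 6 libraries, 2.80% met this rule. They are called member bins below, and a run of adjacent member bins is called a region. Because the ranks chose them, every rank of Brg1KD against the other groups is given as a description, without a test.

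Hi-C, which records which DNA segments lie close together in the nucleus, had been applied to E14 cells, a line of embryonic stem cells derived from a male mouse and wild type in genotype, grown with serum and leukemia inhibitory factor. All groups were transfected once with esiRNA, a pool of short interfering RNAs cut from a long double-stranded RNA, and were harvested 48 h later. The control group received esiRNA against EGFP, a gene these cells lack, the Brg1KD group received esiRNA against Smarca4, the gene of Brg1, and the Ino80KD group received esiRNA against Ino80. Each group has 2 libraries, and per the labels replicate 1 of every group belongs to batch 1 and replicate 2 to batch 2. The labels do not say whether replicates are separate cultures, and p-values measure only the spread between these libraries, which may be technical. The depletion is transient and incomplete depletion cannot be told apart from a small effect, since Hi-C gives no level of either protein.

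Brg1 is the motor subunit of the BAF complex, which slides and evicts nucleosomes and keeps regulatory DNA open in embryonic stem cells. Ino80 is the motor of another remodelling complex, which moves nucleosomes and exchanges histone variants. At a larger scale, chromosomes fold so that active, gene-rich stretches contact each other (the A compartment) and inactive stretches contact each other (the B compartment), and finer contact patterns split each compartment into subcompartments. In the deposited segments the subcompartments form a series of 8 ranks, from B.2.2 (rank 1, the most B-like) through B.2.1, B.1.2, B.1.1, A.2.2, A.2.1 and A.1.2 to A.1.1 (rank 8, the most A-like). A step of 1 rank is called 1 class.

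The DNA in the member bins was not of a single kind, as promoters within the same regions show. A promoter window runs from 250 bases before to 50 bases after a transcription start of a gene, the first one listed where a gene has several. It is read 5′ to 3′ on the gene's strand from RefSeq on GRCm38.p6, with every CG dinucleotide in capitals. The letters CG were searched on the gene's strand and read the same on the other strand, and matches cannot overlap. The first pair comes from the same region of chromosome 1, where Trpm8 (chr1:88306485-88306784, plus strand), the gene of a cold-sensing ion channel, has 1 CG in its window and Arl4c (chr1:88702142-88702441, minus strand), the gene of a small GTPase, has 44. The second pair comes from the same region of chromosome 6, where Parp11 (chr6:127446590-127446889, plus strand), the gene of an ADP-ribosyltransferase, has 5 and Prmt8 (chr6:127769106-127769405, minus strand), the gene of an arginine methyltransferase of the brain, has 44. The starts used for Parp11 and Prmt8, at 127446840 and 127769155, lie inside these genes and not at their outer ends, 127446830 and 127769467. Spp2 and Glrp1 lie between the first pair and Cracr2a between the second. They are shown because a CG-rich and a CG-poor promoter lie in the same region, all bins of which were members.
Trpm8: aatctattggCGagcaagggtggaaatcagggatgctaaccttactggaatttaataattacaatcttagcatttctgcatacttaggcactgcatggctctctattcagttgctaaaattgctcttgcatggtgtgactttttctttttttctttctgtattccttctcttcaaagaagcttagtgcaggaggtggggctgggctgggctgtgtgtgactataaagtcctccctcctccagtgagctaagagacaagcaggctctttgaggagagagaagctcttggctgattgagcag
Arl4c: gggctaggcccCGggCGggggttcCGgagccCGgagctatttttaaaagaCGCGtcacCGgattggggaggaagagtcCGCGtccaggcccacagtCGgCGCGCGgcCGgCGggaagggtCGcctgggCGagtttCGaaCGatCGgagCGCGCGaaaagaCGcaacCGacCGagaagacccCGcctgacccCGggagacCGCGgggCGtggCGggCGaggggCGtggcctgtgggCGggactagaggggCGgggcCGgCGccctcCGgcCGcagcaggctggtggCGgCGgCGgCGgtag
Parp11: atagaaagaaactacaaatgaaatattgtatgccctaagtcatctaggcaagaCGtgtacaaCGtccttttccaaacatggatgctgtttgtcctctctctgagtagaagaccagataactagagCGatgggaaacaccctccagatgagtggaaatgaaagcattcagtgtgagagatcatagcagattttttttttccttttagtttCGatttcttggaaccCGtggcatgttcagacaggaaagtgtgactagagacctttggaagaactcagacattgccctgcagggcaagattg
Prmt8: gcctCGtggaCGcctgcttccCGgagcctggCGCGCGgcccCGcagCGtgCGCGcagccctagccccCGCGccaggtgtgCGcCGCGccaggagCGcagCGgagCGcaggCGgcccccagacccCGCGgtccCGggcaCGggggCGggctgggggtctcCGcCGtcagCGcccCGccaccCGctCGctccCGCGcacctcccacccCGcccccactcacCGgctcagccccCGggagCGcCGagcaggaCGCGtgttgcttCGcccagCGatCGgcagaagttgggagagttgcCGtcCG
Over all 264 promoters of the table that start in member bins, the median was 12 CG per window, against 14 over the 16302 promoters placed. At least 1 CG was present in 97.0% of them and in 95.1% of all promoters. Fewer than 12 were present in 48.5% of them and 44.8% of all. Within compartment A of both controls the medians were 19.5 in member bins and 18 in all, and within B they were 4 and 3, so CG content in member bins was near that of other bins of their compartment.

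The member bins also hold 31 mature miRNAs of 1579 placed (1.96%), with 28 different seeds. A seed is bases 2 to 8 of a miRNA, by which it pairs with its targets. These miRNAs were picked out after their values were seen. A single seed is carried by 3 of them at 2 places in the genome, and by miR-34a-5p, which lies outside the member bins. Only mature miRNAs listed in the reference used were counted. For Mir34c, which shares the bin of Mir34b, only miR-34c-3p is listed, so the count for this seed may be incomplete. The miR-34 and miR-449 genes are known for restraining the cell cycle and for the growth of motile cilia. The mature sequences are given in RNA letters with the seed in capitals.
miR-34b-5p: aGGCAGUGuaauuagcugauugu
miR-449a-5p: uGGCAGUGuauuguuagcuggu
miR-449c-5p: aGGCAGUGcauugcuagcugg
miR-34a-5p: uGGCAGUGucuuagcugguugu
Mir34b lies on chromosome 9 (chr9:51103610-51103632 for the mature miRNA, minus strand), in a bin labelled B.2.1 in both controls and both Ino80KD libraries and B.2.2 in both Brg1KD libraries. Mir449a (chr13:113037549-113037570, plus strand) and Mir449c (chr13:113036008-113036028, plus strand) share a bin labelled A.1.1 in the other 4 libraries and A.2.1 in both Brg1KD libraries, 2 classes lower. Mir34a on chromosome 4 was labelled A.1.1 in all 6 libraries. In the other 4 libraries the bins of this seed thus ranged from B.2.1 to A.1.1, and a shared seed did not go with a shared place in the series of ranks.

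Over the member bins the mean rank was 4.63 in both control libraries, 3.31 and 3.33 in the Brg1KD libraries, and 4.53 and 4.58 in the Ino80KD libraries. The Brg1KD values stand apart from the other 4, as the rule requires. Over all bins the means were 3.99 and 3.98 in the controls, 3.91 and 3.89 in Brg1KD, and 3.92 and 3.89 in Ino80KD. B.2.2 bins cannot be members because no rank lies below them, which raises the members' mean. Over the 33130 bins with room to fall, in which the other 4 libraries all lay above B.2.2, the control means were 5.15 and 5.16, so the members lay lower than the bins that could have met the rule. In the member bins 48.3% and 47.7% were in A in the controls, 29.8% and 30.5% in Brg1KD and 46.9% and 47.8% in Ino80KD. No member bin was in B.2.2 in the controls or Ino80KD, while 290 and 309 were in the Brg1KD libraries. At the other end 93 and 95 member bins were A.1.1 in the controls, 95 and 90 in Ino80KD, and none in Brg1KD.

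**Figure D1:**
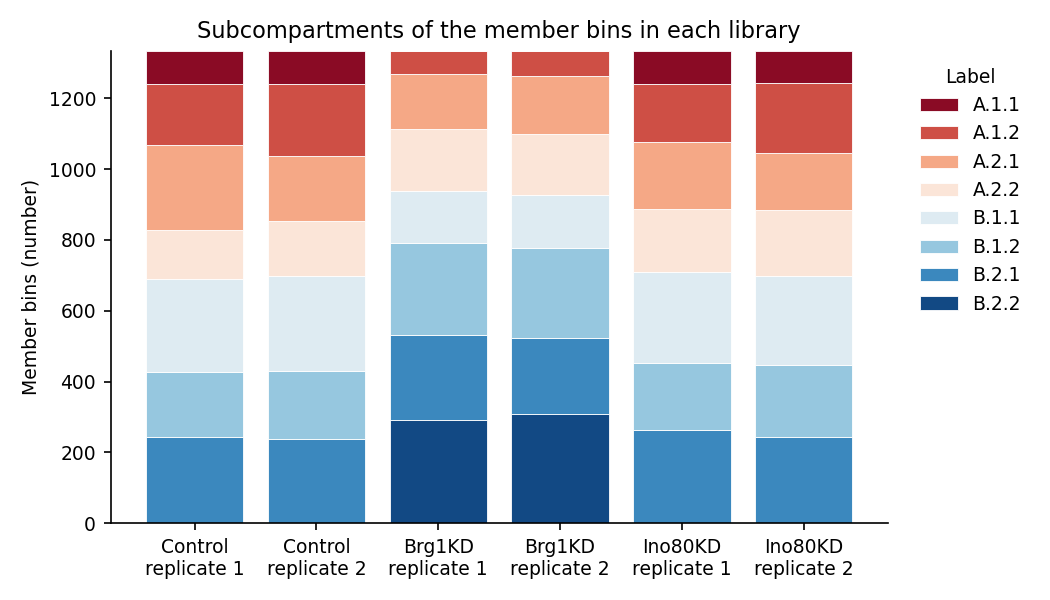
Number of member bins with each of the 8 subcompartment labels (stacked, from B.2.2 at the bottom in dark blue to A.1.1 at the top in dark red) in each of the 6 libraries. The B.2.2 block is present only in the 2 Brg1KD libraries, with 290 and 309 bins, and the A.1.1 block is missing from them, both of which the rule fixes.

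Most differences were small. The mean over the other 4 libraries lay above the Brg1KD mean by a median of 1 class and a mean of 1.28 classes, with a maximum of 5.25, and the difference was exactly 1 class in 764 bins (57.3%). The gap, the distance between the highest Brg1KD rank and the lowest rank of the others, was 1 class in 1262 bins (94.6%), 2 in 53, 3 in 15, 4 in 3 and 5 in 1. Just outside the rule lay 27561 bins with a gap of 0, of which 16111 had the same rank in all 6 libraries and 11450 had a lower mean in Brg1KD, by a median of 0.500 classes. Both Brg1KD libraries shared a label in 89.6% of member bins and both controls in 76.8%, against 68.3% and 68.9% of all bins. Agreement between replicates is favoured by the rule and is given as a description.

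The rule leaves out bins in which Ino80KD lay near Brg1KD. Both Brg1KD libraries lay below both controls in 3431 bins (7.19% of all), of which the members are 38.9%. Both lay below both Ino80KD libraries in 2207 bins (4.63%), of which the members are 60.4%. For comparison 729 bins (1.53%) were higher in Brg1KD only, 519 (1.09%) were lower in Ino80KD only, and 1005 (2.11%) were lower in both knockdowns than in the controls. These sets share libraries with the member bins, so their sizes are set side by side without a test.

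The rule treats the control and Ino80KD libraries alike, so it sets no direction between them, but it keeps Ino80KD above Brg1KD in every member bin and so limits how far Ino80KD can fall there. The mean rank was 4.63 ± 0.000530 (SD, n = 2) in control and 4.56 ± 0.0345 (SD, n = 2) in Ino80KD, a difference of -0.0742 classes. In an exact two-sided permutation test p was 0.333, the smallest value that 2 against 2 libraries allow. The difference was -0.0990 within batch 1 and -0.0495 within batch 2, and with the replicate block the exact p was 0.500, the smallest 2 pairs allow. Over all bins the difference was -0.0774. Because of that limit nothing is read from how these values compare.

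Bin by bin, the mean of Ino80KD equalled that of control in 970 member bins (72.7%), was lower in 265 and higher in 99. With limma and Benjamini-Hochberg adjustment at 0.05, 31 member bins (2.32%) were called, 29 towards B and 2 towards A, where 3.22% of all bins were called and 2.37% were called towards B. All 31 were bins in which replicates did not differ at all, and with 1 common variance for all bins limma called 2 member bins, both towards A, against 0.683% of all bins. Both Ino80KD libraries lay below both controls in 37 member bins (2.77%; 4.50% of all bins) and above both in 4 (0.300%; 1.76% of all bins). The same limit holds for these shares.

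Member bins came from the whole series of ranks above B.2.2. Where both controls shared a label, the members were 7.69% of B.1.1 bins (201), 6.64% of A.2.1 bins (167), 4.68% of A.1.2 bins (154), 4.25% of B.1.2 bins (131), 4.24% of B.2.1 bins (211), 3.89% of A.2.2 bins (75) and 1.46% of A.1.1 bins (85). The shares had separate peaks at B.1.1 and A.2.1, with a lower share at A.2.2 between them, and were lowest at A.1.1. Bins lower in Ino80KD only had the same shape, with 3.14% at B.1.1, 2.02% at A.2.2, 2.90% at A.2.1 and 0.910% at A.1.1. Bins higher in Brg1KD only also peaked at B.1.1, with 4.32%, but not at A.2.1, with 2.55%. The commonest steps, with the same label in the other 4 libraries and the same in both Brg1KD libraries, were B.2.1 to B.2.2 in 193 bins, B.1.1 to B.1.2 in 151 and A.1.2 to A.2.1 in 118. A change of compartment was less common: 181 bins (13.6%) were A in the other 4 libraries and B in both Brg1KD libraries, 390 (29.2%) were A in all 6, 645 (48.4%) were B in all 6, and 118 were mixed. Most member bins thus stayed within their compartment and changed rank inside it.

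**Figure D2:**
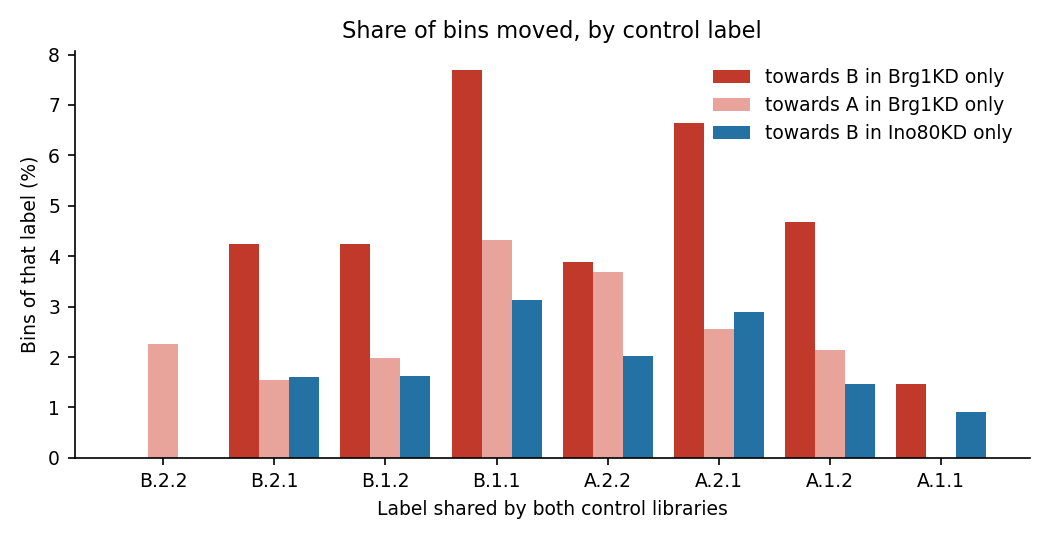
Share of the bins of each control label (x axis, from B.2.2 to A.1.1) that were lower in Brg1KD only, higher in Brg1KD only or lower in Ino80KD only (bars, in percent of the bins of that label). The bars for lower in Brg1KD only peak at B.1.1, with 7.69%, and at A.2.1, with 6.64%, and are 0 at B.2.2, from which no bin can go lower. The bars for lower in Ino80KD only peak at the same labels, with 3.14% and 2.90%.

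The member bins formed 334 regions with a median length of 200 kb and a longest of 750 kb. Single bins made up 96 regions, and the 171 regions of 200 kb or more held 1071 (80.3%) of the member bins. The bins higher in Brg1KD only formed 222 regions with a median of 150 kb, and those lower in Ino80KD only 166 with a median of 150 kb. The bins lower in both knockdowns formed 249 regions with a median of 200 kb, as long as the regions described here. At the ends of the regions of 200 kb or more, the other libraries lay 1.24 classes above Brg1KD in the edge bin and 0.196 classes above it in the next bin outside. The rule itself sets where a region ends and so makes this step. At 300 kb outside the difference was 0.188, against 0.0460 over all bins. Bins outside a region can be members of another region, which the rule made lower in Brg1KD. The value over all bins also includes B.2.2 bins, which cannot fall, so nothing is read from how these values compare. The control means were 4.66 and 4.61 in the edge bin and 4.45 and 4.39 in the bin next to it outside. The rule keeps B.2.2 in control out of the edge bin but not out of its neighbour, so it favours this difference too.

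**Figure D3:**
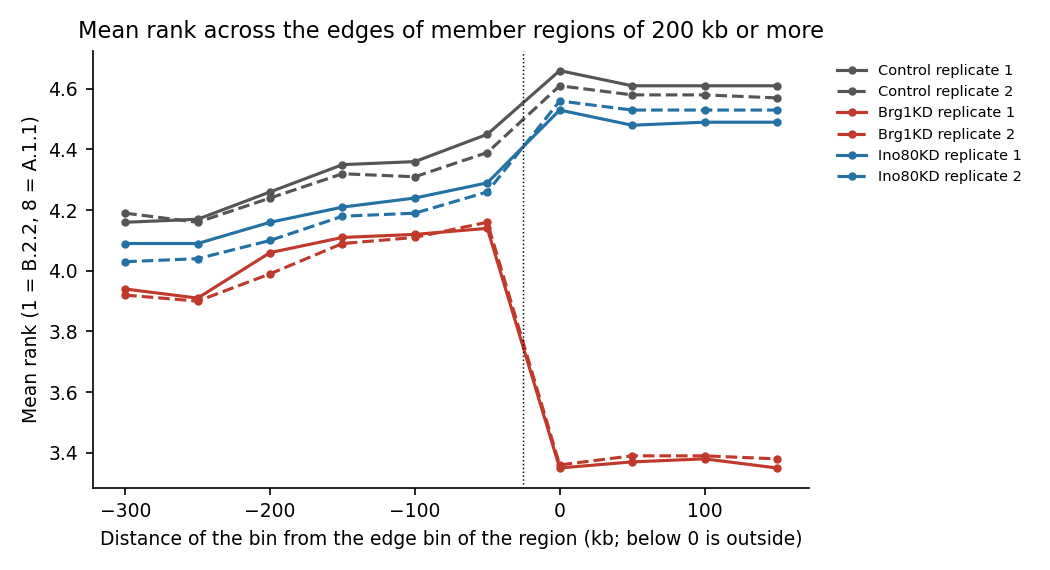
Mean rank (y axis, 1 is B.2.2 and 8 is A.1.1) in each library by the distance in kb of a bin from the edge bin of member regions of 200 kb or more (x axis; below 0 is outside, dotted line at the edge). Inside, the 2 Brg1KD lines run at 3.35 to 3.39 and the other 4 at 4.48 to 4.66, and outside the lines lie closer together with Brg1KD lowest.

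Of 664 sides of regions with a labelled neighbour, the neighbour had a lower mean rank in control than the region's edge on 265 (39.9%), an equal rank on 283 (42.6%) and a higher rank on 116 (17.5%). In Brg1KD the neighbour was lower on 80, equal on 260 (39.2%) and higher on 324 (48.8%). In control 39 regions stood above both neighbours and 11 below both, and in Brg1KD 15 stood above both and 53 below both. Regions that were local high points in control were thus fewer in Brg1KD and local low points more numerous, a pattern that a lower rank inside the region fixes in part. The neighbour was itself lower in both Brg1KD libraries than in both controls on 107 sides (16.1%), against 7.19% of all bins. It had gone towards B in both knockdowns on 27 (4.07%), against 2.11% of all bins. Adjacent bins are not independent, and these shares were not tested.

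The member bins were unevenly spread over the 19 autosomes. Chromosome 16 had the highest share, with 115 member bins (6.09% of its bins), followed by chromosome 8 with 124 (4.93%), chromosome 9 with 105 (4.35%), chromosome 12 with 98 (4.20%) and chromosome 10 with 100 (3.94%). The lowest shares were on chromosome 4 with 42 (1.38%), chromosome 19 with 17 (1.46%) and chromosome 17 with 29 (1.58%). Counted among bins with room to fall, chromosome 16 still led with 9.63% against 4.03% in the genome. In windows of 5 Mb, 231 of 468 had no member bin, and the 47 windows with the most held 46.2% of the members found in windows. Member bins lie in runs, and these 47 windows were picked by their count, so some unevenness follows from the counting itself. Whether the spread over autosomes or windows goes beyond that was not tested.

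**Figure D4:**
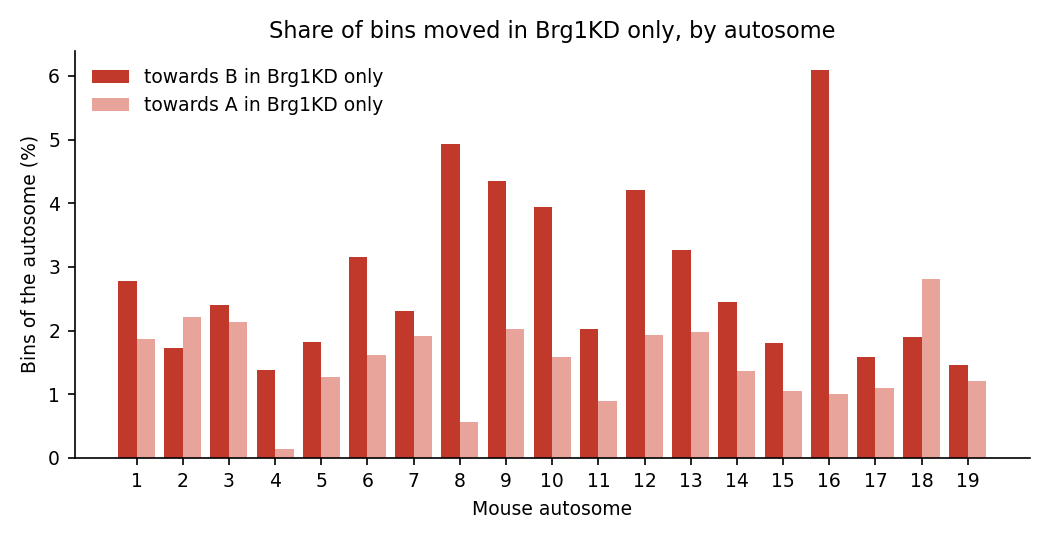
Share of the bins of each mouse autosome (x axis) that were lower (dark bars) or higher (light bars) in Brg1KD only, in percent. Chromosome 16 has the highest dark bar, 6.09%, with a light bar of 1.01%, while chromosomes 2 and 18 have more bins higher than lower in Brg1KD only.

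The window with the most members lies on chromosome 12 from 40 to 45 Mb (chr12:40000001-45000000), with 24 of 100 bins. It holds Dock4, the gene of a guanine nucleotide exchange factor, in a bin labelled A.1.2 in both controls, A.2.2 in both Brg1KD libraries and A.2.1 in both Ino80KD libraries. It also holds Immp2l, the gene of a mitochondrial inner membrane peptidase, 932 kb long, in a bin labelled B.1.2 in Brg1KD and B.1.1 in the other 4. On chromosome 16 a window of 5 Mb (chr16:20000001-25000000) had 21 member bins, among them those of Adipoq, the gene of the fat hormone adiponectin, and Kng1, the gene of the kinin precursor, at A.1.2 in both Brg1KD libraries and A.1.1 in the other 4. In the same window St6gal1, the gene of a sialyltransferase, lay in a bin labelled A.1.1 in the other 4 libraries and A.2.2 in both Brg1KD libraries, 3 classes lower. These genes were picked after their values were seen.

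The regions with the largest summed difference were named first. The largest lies on chromosome 6 (chr6:92250001-92950000, 700 kb) and holds Prickle2, a gene of planar cell polarity, and Adamts9, the gene of a secreted protease of the extracellular matrix. Its mean rank was 4.36 and 5 in the controls, 3 in both Brg1KD libraries, and 4.36 and 5 in Ino80KD. The difference summed to 23.5 classes over 14 bins, and the replicate 1 libraries of control and Ino80KD lay lower than their replicates 2. Adamts9 was A.2.2 in the other 4 libraries and B.1.2 in both Brg1KD libraries.

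The next lies on chromosome 1 (chr1:88300001-89000000, 700 kb) and holds Trpm8, Spp2, which encodes a phosphoprotein secreted into bone, Glrp1 and Arl4c. Its mean rank was 6 and 5.71 in the controls, 4 and 3.71 in Brg1KD and 5 in both Ino80KD libraries. Here Ino80KD lay between the other groups, and the region was in A in the other 4 libraries and in B in both Brg1KD libraries. The third lies on chromosome 6 (chr6:127200001-127950000, 750 kb) and holds Parp11, Cracr2a, which encodes a regulator of calcium entry, Prmt8, and Tspan11, which encodes a membrane tetraspanin. Its mean rank was 6 and 6.73 in the controls, 5 in both Brg1KD libraries, and 6 and 6.53 in Ino80KD, so that all 6 libraries placed it in A.

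A region on chromosome 10 (chr10:44300001-45000000, 700 kb) holds Atg5, a gene of autophagy, and Prdm1, whose product Blimp1 is a repressor needed to form germ cells. Its mean rank was 5.43 and 5.79 in the controls, 4.43 in both Brg1KD libraries and 5.71 in both Ino80KD libraries. Both genes lay in bins labelled A.1.1 in the other 4 libraries and A.1.2 in Brg1KD. On chromosome 6 (chr6:135050001-135650000, 600 kb) a region with 7 genes, among them Gprc5a and Gprc5d, which encode orphan receptors, Hebp1, which encodes a heme-binding protein, and Fam234b, had mean ranks of 6.75 and 6.25 in the controls, 5.17 in both Brg1KD libraries, and 6.75 and 6.17 in Ino80KD. A region on chromosome 9 (chr9:116050001-116500000, 450 kb) holds Tgfbr2, the gene of a TGF-beta receptor, and had mean ranks of 3.78 in both controls, 2 in both Brg1KD libraries, and 3 and 3.78 in Ino80KD. A region on chromosome 3 (chr3:63550001-63900000, 350 kb) holds Plch1, the gene of a phospholipase C, and had mean ranks of 4 and 5 in the controls, 2 and 3 in Brg1KD, and 4 and 5 in Ino80KD. In this last region the replicates of each group differed by 1 class, and each replicate 1 lay lower than its replicate 2.

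The other 3 of the 10 regions hold no protein-coding gene. On chromosome 1 (chr1:73200001-73850000, 650 kb) the ranks were 3 and 4 in the controls, 2 in both Brg1KD libraries and 3 in both Ino80KD libraries. It had the largest summed difference, 16.2 classes, of the regions without a gene. On chromosome 3 (chr3:120800001-121150000, 350 kb) they were 6 and 5 in the controls, 3 in both Brg1KD libraries and 5 in both Ino80KD libraries, a mean difference of 2.25 classes from A to B. On chromosome 13 (chr13:40200001-40600000, 400 kb) they were 3 in both controls, 2 and 1 in Brg1KD, and 4 and 3 in Ino80KD. In all, 174 regions (52.1%) held no protein-coding gene placed by its midpoint.

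Of the bins with the largest gap, 5 are named in order of gap and difference. The bin of Myot (chr18:44300001-44350000), the gene of the muscle protein myotilin, was A.2.1 and A.1.2 in the controls, B.2.2 in both Brg1KD libraries and A.2.1 in both Ino80KD libraries, a gap of 5 classes. The bin of Kctd12 (chr14:102950001-103000000), which encodes an auxiliary subunit of GABA-B receptors, was A.2.1 in the other 4 libraries and B.2.1 and B.2.2 in Brg1KD. The bin of Setmar (chr6:108050001-108100000), which encodes a histone methyltransferase, was A.1.2 in the other 4 libraries and B.1.2 in both Brg1KD libraries. The 2 further bins hold no gene midpoint. They lie on chromosome 19 (chr19:21850001-21900000), with a gap of 4, and on chromosome 9 (chr9:88250001-88300000), with a gap of 3. The last of these is tied with 4 others in gap and in its difference of 4 classes. The tied bins are the next bins of its own region of 150 kb and both bins of a region of 100 kb on chromosome 19 (chr19:11750001-11850000). The first of the next bins holds Nt5e, and the region on chromosome 19 holds Cblif, Mrpl16, Stx3 and Olfr1417. In the 5 named bins all 4 other libraries were in A and both Brg1KD libraries in B.

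Of 20375 protein-coding genes placed by their midpoints, 341 (1.67%) lay in member bins, 16 of them known only by a Gm or Rik symbol. The density was 5.11 genes per Mb, against 8.54 in all bins and 11.0 in the bins with room to fall. The lower density held within each control label: 2.37 against 3.45 genes per Mb in B.2.1, 4.12 against 4.86 in B.1.2, 4.28 against 6.31 in B.1.1, 5.87 against 8.14 in A.2.2, 5.39 against 9.17 in A.2.1, 8.05 against 14.1 in A.1.2 and 11.5 against 24.3 in A.1.1. Adjacent bins are not independent, and these densities were not tested. The genes in member bins had a median length of 29.0 kb, against 17.7 kb for all genes placed, and 29 (8.50%) were longer than 200 kb, against 4.63% of all. All genes placed include those in bins without room to fall, and lengths were not compared within control labels. Bins higher in Brg1KD only held 7.52 genes per Mb, bins lower in Ino80KD only 6.86, and bins lower in both knockdowns 4.84.

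**Figure D5:**
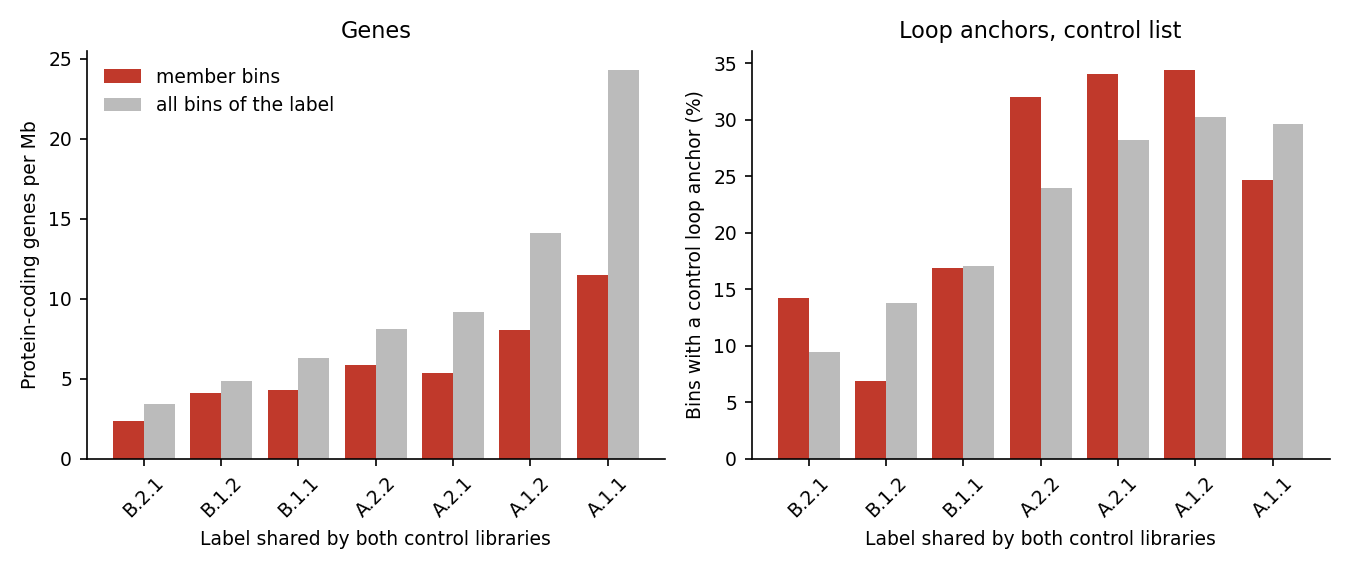
Protein-coding genes per Mb (left) and percent of bins with an anchor of a control loop (right) by the label shared by both controls, for member bins (red) and all bins of that label (grey). Gene density is lower in member bins for all 7 labels, with 11.5 against 24.3 genes per Mb in A.1.1, while loop anchors are more frequent for some labels and less frequent for others.

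All 8 marker genes of embryonic stem cells, such as Pou5f1 and Nanog, lay in A in all 6 libraries, and 4 of 6 fibroblast markers did so too. A compartment gives no level of expression, so these labels check the cell type only loosely. Smarca4 and Ino80 themselves lay in A.1.1 in all 6 libraries. Of 29 gene lists, 17 had at least 1 gene in member bins and 12 had none. Shares ran from 0 to 18.2% of a list, beside the 1.67% of all genes, and rest on 1 to 8 genes.

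Among the lists of development, none of 23 pluripotency genes, 12 mesendoderm genes, 39 Hox genes or 24 genes of the FGF family lay in member bins. Of 12 primitive endoderm genes, 1 did: Lama1, which encodes a laminin chain of basement membranes, was A.2.2 in the other 4 libraries and B.1.1 and B.1.2 in Brg1KD. Of 13 neuroectoderm genes, 1 did: Neurog1, which encodes a transcription factor of neurogenesis, was A.1.2 and A.1.1 in the controls, A.2.1 in both Brg1KD libraries and A.1.1 in both Ino80KD libraries. Of 11 trophectoderm genes, 2 did: Ascl2 and Elf5, both encoding transcription factors of the trophoblast, were 1 class lower in Brg1KD, Ascl2 at A.2.1 against A.1.2 and Elf5 at A.2.2 against A.2.1. All 4 developmental genes were in A in the other 4 libraries, and Lama1 alone of them was in B in Brg1KD. Over whole lists the median difference, the other 4 libraries minus Brg1KD, was 0.250 classes for primitive endoderm and for neuroectoderm genes. It was -0.250 for trophectoderm genes, whose median thus lay higher in Brg1KD, and 0 over all genes placed.

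Among signalling lists, 1 of 47 Wnt genes and 1 of 43 genes of the TGF-beta family lay in member bins. Fzd4, which encodes a Wnt receptor, was A.2.2 and B.1.1 in the controls, B.2.1 and B.1.2 in Brg1KD and B.1.1 in both Ino80KD libraries. Gdf6, which encodes a growth factor of joints and skeleton, was A.2.2 in the other 4 libraries and B.1.2 and B.1.1 in Brg1KD. Of 38 chemokine genes the single one was Cxcl14, which shares the bin and the labels of Neurog1. No gene of the semaphorins, plexins, ephrins, Slit and Robo list, of 66, lay in member bins.

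Of 15 genes of BAF subunits, Smarce1 alone lay in a member bin, at A.2.1 in both Brg1KD libraries and A.1.2 in the other 4, together with the neighbouring keratin gene Krt222. None of 14 genes of INO80 subunits and none of 12 genes of CTCF and cohesin did. Of 91 ribosomal protein genes the single one was Rps27a, with the same step from A.1.2 to A.2.1. These genes remained in A in all 6 libraries.

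Genes of channels, receptors and the matrix were also present. Of 92 potassium channel genes, 4 lay in member bins: Kcnj1 and Kcnj5, neighbours on chromosome 9, went with B.1.2 in Brg1KD against B.1.1, Kcnj6 with B.1.1 against A.2.2, and Kcnv1 with B.2.2 against B.2.1. Of 89 neurotransmitter receptor genes, 2 did: Adra1d, of an adrenaline receptor, was A.2.2 in the other 4 libraries and B.1.1 in Brg1KD, and Drd2, of a dopamine receptor, B.1.1 and B.1.2. Of 42 collagen genes, 3 did, the adjacent Col6a4, Col6a5 and Col6a6 on chromosome 9, at A.2.2 in Brg1KD against A.2.1. Of 23 cadherin genes outside clusters, Cdh9 was B.1.1 and B.1.2 in the controls, B.2.1 in both Brg1KD libraries and B.1.2 in both Ino80KD libraries. Neighbouring genes share bins and regions, so such runs are not separate cases.

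Of 376 solute carrier genes, 8 (2.13%) lay in member bins. Slc40a1, which encodes the iron exporter ferroportin, was A.2.2 in the other 4 libraries and B.1.2 and B.1.1 in Brg1KD. Slc2a2, which encodes the glucose transporter of liver and islets, was A.2.1 and A.2.2 in the controls, B.1.1 in both Brg1KD libraries and A.2.2 in both Ino80KD libraries. Slc18a1, of a vesicular monoamine transporter, was A.1.1 in the other 4 libraries and A.2.1 and A.1.2 in Brg1KD, so it stayed in A, and Slco1c1, of a thyroid hormone transporter, was in B throughout. Of 98 cytochrome P450 genes, 2 did: Cyp1b1 was A.2.2 in Brg1KD against A.2.1, while Cyp2b10 was B.1.1 in both controls, B.1.2 in both Brg1KD libraries and A.1.2 in both Ino80KD libraries. Cyp2b10 was thus lower in Brg1KD and higher in Ino80KD than in control.

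Of 1097 olfactory receptor genes 5 (0.456%) lay in member bins. Only 350 of the 1097 lie in bins with room to fall, and the 5 are 1.43% of those, against 1.87% for all 18281 genes in such bins. Of the 5, Olfr434, Olfr435 and Olfr47 share 1 bin at B.2.2 in Brg1KD. Olfr1417 stood apart, at A.1.2 and A.2.1 in the controls, B.1.2 and B.2.1 in Brg1KD, and A.2.1 and A.1.2 in Ino80KD. None of 334 vomeronasal receptor genes (228 with room to fall), 62 serpin genes (36 with room) or 57 clustered protocadherin genes (all with room) did. Of 349 zinc-finger genes 4 did (Zfp330, Zfp169, Zfp536 and Zfp930), and the largest difference, 1.75 classes, was at Zfp330, labelled B.2.1 in both Brg1KD libraries.

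Some regions held a cluster of related genes; these were picked after their values were seen. Of 42 beta-defensin genes, which encode antimicrobial peptides, 12 lay in 1 region of 450 kb on chromosome 8 (chr8:18950001-19400000), labelled B.2.1 in both Brg1KD libraries and B.1.2 in the other 4 at each of these genes. Of 10 genes of guanylate-binding proteins, which act in defence against intracellular microbes, 5 lay in 1 region of 500 kb on chromosome 5 (chr5:104900001-105400000), at B.2.2 in both Brg1KD libraries and B.2.1 or B.1.2 in the others. The region also holds Abcg3. All 4 Cd200 receptor genes lay in a region of 600 kb on chromosome 16 (chr16:44450001-45050000), at B.2.1 in both Brg1KD libraries. Boc, Nepro and Gtpbp8 share this region and were in A, at A.2.1 in both Brg1KD libraries and A.1.2 in the other 4. The genes of the 3 clusters were in B in both controls.

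Chromatin loops were listed once per group, without a score, so these counts have no replicate error. A loop joins 2 anchors of 10 kb, often held by CTCF and cohesin. Of the member bins, 22.7% held an anchor of a control loop, 22.8% one of a Brg1KD loop and 22.4% one of an Ino80KD loop, against 17.6%, 17.8% and 16.6% of all bins. Among the bins with room to fall the shares were 22.4%, 22.6% and 21.3%, so member bins held anchors about as often as other bins that could have fallen. The shares were nearly equal in the 3 lists. By control label they varied without a common direction: in B.2.1 14.2% of member bins and 9.46% of all bins held a control anchor, and in B.1.2 6.87% and 13.8%. Member shares were also higher in A.2.2 (32% against 24.0%), A.2.1 (34.1% against 28.2%) and A.1.2 (34.4% against 30.3%). They were lower in B.1.1 (16.9% against 17.1%) and A.1.1 (24.7% against 29.6%). The comparison with bins with room to fall is not matched for rank, and member bins lay lower in mean rank.

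Of 369 control loops that touched a member bin, 186 (50.4%) had no loop with identical anchors in the Brg1KD list, against 54.1% of all control loops on the autosomes, and 181 (49.1%) had none in the Ino80KD list, against 53.1%. When anchors within 10 kb counted as the same, 88 (23.8%) were missing from the Brg1KD list, against 22.8% of all, and 86 (23.3%) from the Ino80KD list, against 24.6%. By this matching 66.1% of the control loops at member bins, and 66.0% of all, were in all 3 lists. Loops at member bins were therefore kept and lost about as often as loops elsewhere, in either knockdown.

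The 5 longest control loops that joined a member bin to a protein-coding gene and were missing from the Brg1KD list within 10 kb span 940 to 1030 kb. One on chromosome 9 joins a member bin (anchor chr9:25730001-25740000) labelled B.2.1 in the other 4 libraries and B.2.2 in Brg1KD to the bin of B3gat1 and Glb1l2 (anchor chr9:26760001-26770000). One on chromosome 11 joins a member bin (anchor chr11:63400001-63410000) at B.2.1 in Brg1KD against B.1.2 to the bin of Hs3st3a1, which encodes a heparan sulfate sulfotransferase (anchor chr11:64430001-64440000) and was B.2.2 in all 6 libraries. One on chromosome 8 (anchors chr8:60500001-60510000 and chr8:61500001-61510000) joins the member bin of Aadat, which encodes a mitochondrial aminotransferase, to the bin of Cbr4 and was present in the Ino80KD list. Of the 5, this loop alone was in that list.

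The other 2 lie on chromosomes 1 and 13. The first (anchors chr1:57400001-57410000 and chr1:58370001-58380000) joins the member bin of Tyw5 and Maip1, at A.2.2 and A.2.1 in the controls and again in Ino80KD but B.1.1 in both Brg1KD libraries, to Aox2, which encodes an aldehyde oxidase and was A.1.1 in all 6 libraries. The second (anchors chr13:41640001-41650000 and chr13:42580001-42590000) has a member bin at both ends, that of Tmem170b at B.1.2 in both Brg1KD libraries and a bin without a gene at B.2.1 in both. Since each list is pooled and unscored, a loop missing from a list cannot be told apart from one just under the threshold.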

How the data were processed

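Subcompartments and loops of 6 Hi-C libraries were used. The submitters' processing notes name the build mm10 and the tools BWA, SAMtools, HOMER, bedtools and Juicer 2.0; callers and thresholds are not given in the sources used here. Per library the authors deposited 1 segment file with a label and a score, the subcompartment's rank in 8 steps, and 1 list of loop positions per group, named as merged and taken as pooled. Depth is unknown, so no interval that needs it was computed, and differing depth between libraries could shift ranks.

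Segments were divided into 50 kb bins, and 47717 bins labelled in all 6 libraries were kept. Genes were placed by midpoint from RefSeq (GRCm38.p6). Ino80KD was compared with control by exact two-sided permutation and by limma 3.58.1 in R 4.3.3 on all 6 libraries. In a test on simulated ranks limma with moderated variances missed known shifts and called unshifted bins, so its p-values are not calibrated. With 1 common variance it recovered nearly all known shifts. The simulated ranks had the same noise in every bin, as a common variance assumes, so the simulation favours that fit. It does not show that this fit is calibrated on the real ranks. In the real ranks 18941 bins have no spread between replicates, and whether this accounts for the poor calibration was not tested. The labels' batches pair the libraries: deviations from group means correlated within a batch with r = 0.0984 (control, Brg1KD), 0.102 (control, Ino80KD) and 0.0885 (Brg1KD, Ino80KD).

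The member bins, gene lists and named items were chosen with earlier results of these data known. Named were the 10 regions with the largest summed difference, with up to 4 genes each by position, and the largest region without a gene. Also named were the 5 bins with the largest gap, up to 4 genes per list, and Smarca4 and Ino80. The named loops were the 5 longest control loops missing from the Brg1KD list. These loops were matched within 10 kb, as were the shares of loops found in every list. Missing loops were counted both by identical anchors and within 10 kb. Other genes, miRNAs and clusters were picked after their values were seen.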

Additional observations from a re-analysis of the deposited data

How the results depend on the processing

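The 1334 member bins and 334 regions depend on the rule. All 1334 remain when a library is left out, since fewer libraries must agree, and the count ranges from 1622 to 3137 bins, with 406 to 718 regions; it is 3137 without Brg1KD replicate 1 and 3066 without Brg1KD replicate 2. Within batch 1 alone 5344 bins met the rule and within batch 2 alone 5145. Without the Ino80KD libraries there were 3431, and with a gap of at least 2 classes 72. In 10 kb bins the count was 1334 (50 kb equivalents). This is fixed in advance, since segments are made of whole 50 kb bins and each 10 kb bin takes its segment's rank. In 100 kb bins it was 1576 (50 kb equivalents), and with gaps of 1 bin bridged there were 331 regions. Genes placed by any overlap were 483 in place of 341. Control loops missing from the Brg1KD list were 88 within 10 kb in place of 186.

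For Ino80KD against control, the difference in mean rank over member bins kept its sign in each alternative, from -0.0986 to -0.0499 when a library was left out. limma called 31 member bins with and without the replicate block, 2 with a common variance, 118 to 358 when a library was left out (118 and 132 with the first or the second control library out, 346 and 358 with the first or the second Ino80KD library out, the lone library being assumed to vary like the others), and 41 lay beyond both controls without a model, a count chosen after seeing the data. With a control or Ino80KD library left out, the share of all bins called by limma rose as well. The rise was thus not particular to member bins. With either Ino80KD library out, most calls in member bins were towards A, whereas in the main fit most were towards B. Nothing is read from the limma counts with a library left out, since they rest on a lone library in a group. The GC content of the bins was not run, since it needs a genome, and the read depth behind a rank is unknown.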
